A study of Mus musculus with 12 samples.

Results

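A set of 7 genes of lipid handling were followed across the cell classes of the mouse superior mesenteric ganglion (SMG), a sympathetic ganglion at the base of the mesenteric artery. They are 7 of the 32289 features in the count matrices, taken by symbol. Apoe and Apod encode secreted apolipoproteins, and Clu encodes clusterin (apolipoprotein J). Lpl encodes lipoprotein lipase, Lrp1 a receptor that takes up apolipoprotein E particles, and Abca1 and Abca8a transporters of the ATP-binding cassette family. They were selected on their UMI levels over cell types and conditions in these same samples, so those levels are given as a description, with no test. Tests were kept for other lipid genes, for a division of the glia by myelin gene counts and for differences between mice in neuroblast share.

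Apolipoproteins carry cholesterol and phospholipid between cells. In nervous tissue, apolipoprotein E is known as a product of glia and macrophages, which load it with lipid through ABCA1 and release it as particles that neurons and other cells take up through receptors of the LDL receptor family, LRP1 among them. Lipoprotein lipase frees fatty acids from the triglycerides of circulating lipoproteins, and ABCA8 proteins are lipid transporters whose substrates are less well known.

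Single-cell RNA sequencing was done on the SMG of 12 mice of strain 129+Ter/SvJcl, 1 library each, to follow how the neuroblastoma cells of this model arise. There was 1 wild-type (WT) mouse aged 3 weeks, 10 Th-MYCN+/- hemizygotes aged 3 weeks (#1 to #10) and 1 Th-MYCN+/- mouse aged 6 weeks, whose SMG was picked because a tumor could be seen in it. The transgene places human MYCN under the rat Th (tyrosine hydroxylase) promoter, so it is driven in cells that make catecholamines and not by design in glia or macrophages. With 1 WT and 1 6-week mouse, no test between conditions was possible. Human MYCN had 0 UMIs (unique molecular identifiers, 1 per captured transcript) in the WT library and 106 to 1124 in the 10 Th-MYCN+/- libraries at 3 weeks, and 928 at 6 weeks. Library totals were 1147772 UMIs in WT, 1444554 to 6388766 in the 10 mice and 4824039 at 6 weeks.

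A total of 12029 cells passed the filters, with 95 barcodes shared between libraries where 88.9 were expected by chance. Clusters were named from marker lists that hold none of the 7 genes. Named cells were 2891 Schwann-like cells (the glia of the ganglion, satellite cells included), 242 macrophage-like, 140 fibroblast-like, 165 myofibroblast-like, 508 endothelial-like, 2709 ganglion-like (sympathetic neurons), 5304 neuroblast-like and 43 NKT-like cells. Summed markers of the matching list reached 21425 to 31468 CPM (counts scaled to 1000000 UMIs in each sum of class and mouse) in Schwann-like, 50356.5 to 99106 CPM in macrophage-like and 65264 to 96204 CPM in fibroblast-like sums. The same lists gave the names, so these sums describe the classes and do not test their names. The matching lists reached 11948 CPM or more in endothelial-like, 37472 in myofibroblast-like, 28118 in ganglion-like, 15268 in neuroblast-like and 10386 in NKT-like sums. Macrophage-like cells also held all 8 B cell markers, at 210 to 8109 CPM, with Igkc among the leading genes. Mouse #2 stood apart: it gave 88.7% of 1 ganglion-like cluster and only 9 Schwann-like and 5 macrophage-like cells, so its sums in these classes do not enter the means (n = 9). Markers of adipocytes reached at most 458 CPM in any sum and those of mesothelium at most 2.67 CPM. Markers of the adrenal cortex reached at most 60.8 CPM. Erythroid markers varied from 0 to 41746 CPM, the highest in 1 endothelial-like sum.

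The start regions of genes that lead in different classes are shown because the members divide by class. Apoe lies at chr7:19696109-19699188 on the minus strand of GRCm38, Apod at chr16:31296192-31314808 (minus) and Abca8a at chr11:110025634-110095978 (minus). By mean level, Apoe and Abca8a were highest in Schwann-like cells, and Apod in fibroblast-like cells. The Apoe range overlapped with that of macrophage-like cells, and the Abca8a range with that of fibroblast-like cells. The sequences below are upstream of the transcript start as RefSeq gives it for GRCm38.p6, 5′ to 3′ on the strand of the gene. Capitals mark CACGTG, an E-box of the kind MYC family proteins bind, or ACAAAG and its reverse complement CTTTGT, letters found in sites of Sox proteins. Neither motif overlaps the other.
Apoe, chr7:19699189-19699438: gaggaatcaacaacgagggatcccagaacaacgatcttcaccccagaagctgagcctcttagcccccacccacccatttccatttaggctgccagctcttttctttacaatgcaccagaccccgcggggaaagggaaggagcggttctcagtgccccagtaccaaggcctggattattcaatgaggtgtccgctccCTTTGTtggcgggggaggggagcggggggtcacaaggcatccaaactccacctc
Apod, chr16:31314809-31315058: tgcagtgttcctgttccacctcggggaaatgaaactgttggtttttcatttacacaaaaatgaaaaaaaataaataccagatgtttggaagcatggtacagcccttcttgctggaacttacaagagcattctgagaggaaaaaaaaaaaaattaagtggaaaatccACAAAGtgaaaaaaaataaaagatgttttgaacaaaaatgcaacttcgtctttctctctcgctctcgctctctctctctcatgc
Abca8a, chr11:110095979-110096187: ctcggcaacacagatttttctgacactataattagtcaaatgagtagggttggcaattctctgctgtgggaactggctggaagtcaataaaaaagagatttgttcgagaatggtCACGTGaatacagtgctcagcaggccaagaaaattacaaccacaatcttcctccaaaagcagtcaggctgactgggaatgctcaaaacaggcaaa
The Abca8a stretch ends at the annotated gene end, since RefSeq places the start 41 bases further inside the gene and those bases are not printed. Counted back from the end of each printed stretch, Apoe held CTTTGT at position -54, Apod ACAAAG at -84 and Abca8a CACGTG at -95, which is -136 from the RefSeq start of Abca8a. The motif search covered 250 bases upstream of each start for the 5 of 7 genes with an entry. CACGTG was found in Abca1 and Abca8a, against 6.02% of 32851 promoters of that length, and ACAAAG or CTTTGT in Apoe, Apod and Abca1, against 16.5%. These matches describe letters only. Clu lies at chr14:65968483-65981547 (plus), Lpl at chr8:68880491-68907448 (plus), Lrp1 at chr10:127538161-127621148 (minus) and Abca1 at chr4:53030787-53159895 (minus). All 7 are annotated as protein-coding.

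Apoe was higher in Schwann-like and macrophage-like cells than in neuroblast-like cells in every mouse with enough cells of these classes. In Schwann-like cells of Th-MYCN+/- mice at 3 weeks its level was lowest in #6 (59508 CPM), had a median of 77248 CPM and was highest in #4 (94654 CPM). The mean was 78031 ± 11040 CPM (SD, n = 9). Macrophage-like cells ranged from 35571 CPM in #4 through a median of 55797 CPM to 98830.2 CPM in #7, with a mean of 62178 ± 24346 CPM (n = 9). The ranges overlapped, and Schwann-like cells were the higher of the pair in 5 of 9 mice, so the order of these 2 classes was not separated by the spread between mice. Fibroblast-like cells came next at 17892 ± 6810 CPM (n = 5), from 12228 CPM in #1 to 29627 CPM in #3. These 5 sums lay below the macrophage-like range, but the smaller sums of #7 (49316 CPM, 137 UMIs) and #8 (40826 CPM, 176 UMIs), with 5 cells each and not in the mean, lay inside it.

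Neurons and tumor-lineage cells held little Apoe. The mean was 2731 ± 1372 CPM in ganglion-like cells (n = 10), 2069 ± 2098 CPM in endothelial-like cells (n = 9), 760 ± 1155 CPM in neuroblast-like cells (n = 10) and 435 ± 434 CPM in myofibroblast-like cells (n = 7). Neighbours in that order overlapped. Mouse #2 (3906 CPM) carried much of the neuroblast-like mean, which was 411 ± 357 CPM (n = 9) without it and then below the myofibroblast-like mean. The level in Schwann-like cells was 68.2 to 1021 times that in neuroblast-like cells of the same mouse (median 222, 9 of 9 mice).

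**Figure D1:**
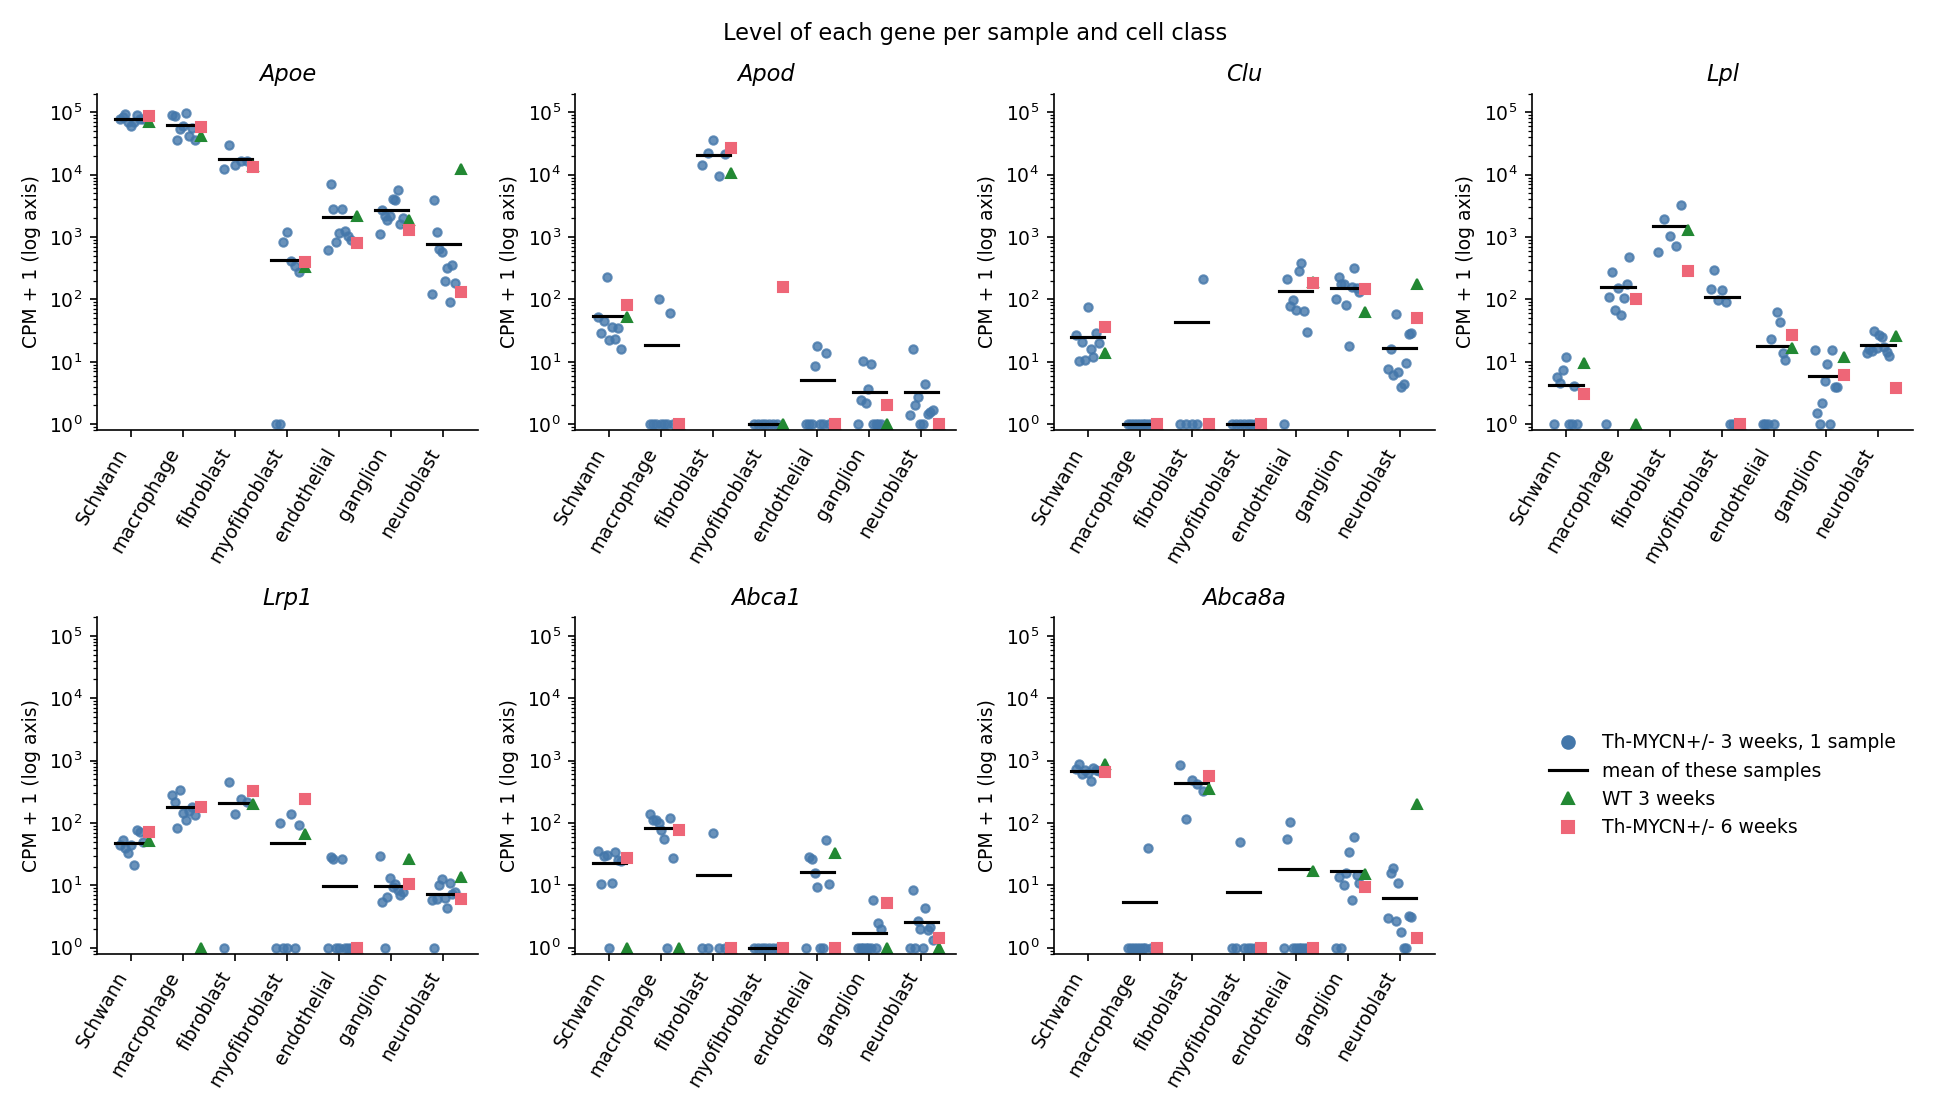
Level of each gene (CPM + 1, log axis) in each cell class, 1 point per mouse with at least 10 cells in that class. Blue circles are Th-MYCN+/- mice at 3 weeks with their mean as a bar, green triangles the WT mouse and red squares the 6-week mouse. Apoe was highest in Schwann-like and macrophage-like cells, Apod and Lpl in fibroblast-like cells, and Clu was at 0 in macrophage-like cells.

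Apoe was also found in empty droplets, which hold free RNA and no cell. Empty droplets held Apoe at 4599 CPM (#4) to 21642 CPM (#2) in the 10 mice (median 7612 CPM). Schwann-like, macrophage-like and fibroblast-like cells were above the empty droplets of their own library in all mice measured (9 of 9, 9 of 9 and 5 of 5). Ganglion-like cells were below them in 9 of 10 mice, neuroblast-like cells in 10 of 10, endothelial-like cells in 9 of 9 and myofibroblast-like cells in 7 of 7. Free RNA in the 10 mice was estimated at 4.13 to 20.3% of neuroblast-like and 12.8 to 100% of ganglion-like sums. The estimates were 0 to 7.75% of endothelial-like and 0 to 8.14% of myofibroblast-like sums. In a sum that is only partly free RNA, a level below the empty droplets does not show where the UMIs came from. Whether Apoe UMIs in these 4 classes came from free RNA or from the cells was not tested.

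Nearly every Schwann-like cell held Apoe. With each cell thinned to 500 UMIs, 1815 of 1824 Schwann-like cells had at least 1 Apoe UMI (99.5%, exact 95% interval 99.1 to 99.8%), against 99.6% of 2197 cells before thinning. The share was 87.3% of 63 fibroblast-like cells (76.5 to 94.4%) and 73.0% of 174 macrophage-like cells (65.7 to 79.4%). It was 44.7% in ganglion-like, 35.1% in endothelial-like and 4.92% in neuroblast-like cells, classes mostly below their empty droplets. Intervals cover counting error only. Median depths before thinning were 989 UMIs in Schwann-like, 1009 in macrophage-like, 743 in fibroblast-like and 2539 in neuroblast-like cells. In the median Schwann-like cell Apoe took 5.1% (#6) to 9.2% (#4) of the 500 UMIs by mouse, 7.4% in WT and 8.4% at 6 weeks.

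Macrophage-like cells were mixed for Apoe. The median cell ranged from 0.8% of its UMIs in #6 to 7.4% in #1. Of the cells of this class in the 10 mice, 90 held a B cell marker UMI and 125 did not. Among those without one, 96.8% held a UMI of C1q genes (complement components made by macrophages), 95.7% held Apoe after thinning and the median was 25 UMIs of 500. Among those with one, 48.9% held a C1q UMI, 47.6% held Apoe after thinning and the median was 0. The summed level of Apoe was 65701 CPM without and 48045 CPM with a B cell marker UMI. With lipid genes kept in the clustering, 50 of the 242 macrophage-like cells went to a separate B cell-like cluster of 94 cells (7 of 8 B cell markers high, led by Igkc, Trbc2 and Ighm) and 192 stayed macrophage-like (13 of 13 macrophage markers high). The 7 genes themselves entered that clustering. The class as used here, and its 73.0% share, therefore held B cell-like cells, and doublets were not tested.

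**Figure D2:**
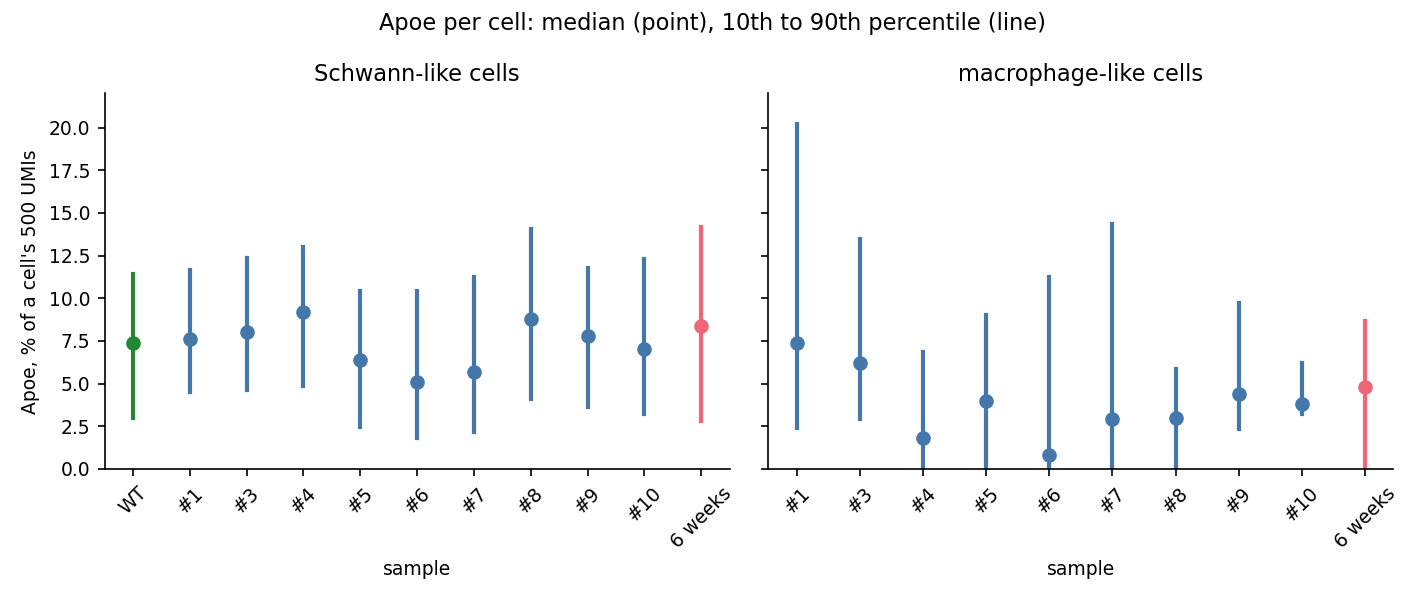
Apoe as a percentage of the 500 UMIs kept per cell, by mouse, in Schwann-like (left) and macrophage-like cells (right), with the median as a point and a line from the 10th to the 90th percentile of cells. Schwann-like medians lie between 5.1% and 9.2% in Th-MYCN+/- mice at 3 weeks, and macrophage-like medians between 0.8% and 7.4%.

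Apod, a lipocalin that binds arachidonic acid and other small lipids, marked the fibroblast-like cells. Its level there was lowest in #6 (9674 CPM), had a median of 21440.0 CPM and was highest in #4 (36061 CPM), with a mean of 20695 ± 10025 CPM (n = 5). Schwann-like cells came second at 53.2 ± 67.0 CPM (n = 9), from 14.8 CPM in #10 to 229 CPM in #5, and no mouse overlapped with the fibroblast-like range. Without #5 the mean was 31.2 ± 12.2 CPM (n = 8). Fibroblast-like cells were 276 to 831 times higher than Schwann-like cells of the same mouse (5 of 5 mice). Apod was below the empty droplets (42.1 to 220.3 CPM) in 7 of 9 Schwann-like sums and in all macrophage-like, endothelial-like, ganglion-like and neuroblast-like sums. After thinning, 68.3% of fibroblast-like cells held an Apod UMI (55.3 to 79.4%) against 1.81% of Schwann-like cells.

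Clu, a secreted chaperone that also travels on lipoproteins, had its highest mean in ganglion-like cells. The level there was 16.7 CPM in #6, 154 CPM at the median and 323 CPM in #8, with a mean of 154 ± 83.3 CPM (n = 10). Endothelial-like cells overlapped with them, at 135 ± 129 CPM (n = 9). Schwann-like cells were at 23.7 ± 20.6 CPM (n = 9) and neuroblast-like cells at 15.9 ± 17.2 CPM (n = 10). Ganglion-like cells were above neuroblast-like cells in 10 of 10 mice and above their own empty droplets in 9 of 10, whereas Schwann-like cells were above the empty droplets in 1 of 9. In macrophage-like cells Clu had 0 UMIs in all 9 mice, and after thinning 0 of 174 cells held one (exact 95% interval up to 2.10%).

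Lpl was led by fibroblast-like cells. The level there ran from 569 CPM in #1 through 1026 CPM to 3307 CPM in #9, with a mean of 1509 ± 1131 CPM (n = 5). Macrophage-like cells followed at 158 ± 144 CPM (n = 9), from 0 in #1 to 479 CPM in #10, below those 5 fibroblast-like sums. The fibroblast-like sums of under 10 cells in #5 (204 CPM, 2 UMIs) and #2 (0 UMIs) lay inside the macrophage-like range. Myofibroblast-like cells stood at 109.5 ± 100.5 CPM (n = 7), which overlapped with macrophage-like cells. Neuroblast-like cells held a low and even level, 17.7 ± 6.30 CPM (n = 10; 11.4 to 29.9 CPM), above their own empty droplets in 8 of 10 mice. Schwann-like cells were lower than neuroblast-like cells in 9 of 9 mice, at 3.18 ± 3.74 CPM with 7 UMIs in all. Among thinned cells, 31.7% of fibroblast-like (20.6 to 44.7%), 5.75% of macrophage-like and 0.806% of neuroblast-like cells held an Lpl UMI.

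Lrp1, the receptor, was present in fibroblast-like and macrophage-like cells and at a lower level in glia. Fibroblast-like cells were at 209 ± 165 CPM (n = 5, 12 UMIs) and macrophage-like cells at 181 ± 81.9 CPM (n = 9; 83.2 CPM in #4, median 154 CPM, 334 CPM in #5), with overlapping ranges. Schwann-like cells ran from 19.96 CPM in #7 through 43.3 CPM to 76.3 CPM in #8, with a mean of 47.0 ± 17.6 CPM. They lay below macrophage-like cells in 9 of 9 mice, with no overlap of the ranges, and above their own empty droplets in 9 of 9. Neuroblast-like cells were at 6.22 ± 3.37 CPM and below the empty droplets in 9 of 10 mice. Leaving out macrophage-like cells with B cell marker UMIs moved the macrophage-like mean to 284 CPM.

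Abca1, which exports cholesterol to apolipoproteins, was highest in macrophage-like cells. The level was 0 in #8, 100.2 CPM at the median and 140.04 CPM in #1, with a mean of 81.8 ± 46.2 CPM (n = 9, 28 UMIs). Schwann-like cells were at 21.4 ± 12.03 CPM (n = 9, 55 UMIs), from 0 in #6 to 34.4 CPM in #1. Macrophage-like cells were the higher in 8 of 9 mice, and the ranges overlapped. Endothelial-like cells held 15.2 ± 17.1 CPM, and ganglion-like and neuroblast-like cells held 3 and 12 UMIs in all.

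Abca8a was a glial and fibroblast gene. In Schwann-like cells it was lowest in #7 (464 CPM), had a median of 707 CPM and was highest in #3 (873 CPM), with a mean of 683 ± 113 CPM (n = 9). Fibroblast-like cells were at 438 ± 271 CPM (n = 5), from 113 CPM in #3 to 853 CPM in #1, and the ranges overlapped. Means in the other classes were 17.4 CPM or below (endothelial-like cells the highest, at 6.73 CPM without #3), and macrophage-like cells held 2 UMIs in 9 mice. After thinning, 28.0% of Schwann-like cells (25.9 to 30.1%) and 22.2% of fibroblast-like cells (12.7 to 34.5%) held a UMI, against 0.242% of neuroblast-like cells. Abca8a lies beside close relatives, Abca8b among them, and reads that fit both genes may have been dropped or divided.

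A set of 3 clusters made up the Schwann-like class. Cluster 1 was led by Sbspon, Kcna1 and Sostdc1, cluster 6 by immediate early and heat shock genes (Ccn1, Fos, Hspa1a), and cluster 13 by myelin genes (Ncmap, Prx, Cldn19). Apoe was at 81766 ± 9256 CPM in cluster 1 and 77823 ± 10472 CPM in cluster 6 (n = 8 mice with enough cells in both), higher in cluster 1 in 5 of 8. Abca8a was at 731 ± 91.3 and 578 ± 198 CPM, higher in cluster 1 in 7 of 8. Clu was at 9.67 ± 6.56 CPM in cluster 1 and 40.2 ± 31.8 CPM in cluster 6, higher in cluster 6 in 7 of 8. The 15 cells of cluster 13 in the 10 mice held 46 Apoe UMIs, or 3598 CPM (exact Poisson 95% interval 2634 to 4799 CPM), and 0 Abca8a UMIs where 3 would be 235 CPM. These values describe clusters and carry no test.

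The WT and 6-week mice lay inside the range of Th-MYCN+/- mice at 3 weeks for all 7 genes in Schwann-like cells. Apoe was 70217 CPM in WT and 86636 CPM at 6 weeks, and Abca8a 869.8 CPM and 662 CPM. In WT, Abca8a was inside only through #3 (873 CPM), with #8 next at 752 CPM. Abca1 had 0 UMIs in 354 WT cells and was inside only through #6, which was also at 0. Lpl in WT (2 UMIs) was inside only through #6 as well. Apod and Clu at 6 weeks were inside only through 1 mouse each. Apod was 81.5 CPM (40 UMIs, exact 95% interval 58.3 to 111 CPM) against at most 51.5 CPM without #5, and Clu was 34.7 CPM (17 UMIs, 20.2 to 55.5 CPM) against at most 27.5 CPM without #6. None of the 7 genes lay outside the range of the 9 mice in WT or at 6 weeks, where 17.5% and 9.71% of all genes with enough UMIs did. Such shares, here and for the other classes, cover genes with at least 10 UMIs over the sums compared, but the 7 were counted at any depth. Lpl in Schwann-like cells (7 UMIs in the 9 mice) fell short of that minimum. So did Clu, Abca8a and Apod in macrophage-like cells (0, 2 and 6 UMIs in the 9 mice). In macrophage-like cells Apoe was 42015 CPM in WT and 57236 CPM at 6 weeks, both inside the range. There 1 of 7 genes was outside in WT, against 31.3% of genes, and none at 6 weeks, against 9.3%. That gene was Lrp1, with 0 of 8497 UMIs in WT, where 3 UMIs would be 353 CPM, so a difference was not detectable at this depth.

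Differences of condition in the other classes rested on few UMIs. In fibroblast-like cells none of the 7 was outside the range in WT (28.1% of genes) and 1 at 6 weeks (21.6%), Lpl at 283 CPM (7 UMIs, 114 to 584 CPM) against 569 CPM or more in the 5 mice at 3 weeks and 204 CPM (2 UMIs) in the smaller sum of #5. In neuroblast-like cells Lpl was also below the range at 6 weeks, at 2.87 CPM (7 UMIs, 1.15 to 5.91 CPM) against 11.4 CPM or more, the only gene of the 7 outside (16.3%). In myofibroblast-like cells 2 genes were above the range at 6 weeks (19.6%), Apod with 2 UMIs and Lrp1 with 3. Ganglion-like and endothelial-like cells had none outside in WT (14.7% and 17.3%) or at 6 weeks (7.27% and 15.6%). The WT library gave 42 droplets that clustered as neuroblast-like. Apoe (12105 CPM), Clu (175 CPM), Lrp1 (12.5 CPM) and Abca8a (200.5 CPM) were above the range there, beside 54.3% of genes. The estimated share of free RNA in that sum was 56.9%, and its part in these levels was not tested.

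To ask whether Apoe follows myelin gene counts among glia, Schwann-like cells of each mouse were ranked by UMIs of 11 myelin genes (Mbp and Prx among them) after thinning to 500 UMIs. The ranks are ranges of this count and not cell types. The cells were cut into 3 equal ranks, and those of the top rank (myelin-high) were compared with those of the bottom rank (myelin-low) by edgeR's quasi-likelihood test on summed counts, with the mouse as a block, over 9 mice with 25 to 131 cells per rank. Myelin UMIs averaged 4.69 to 9.33 per 500 in myelin-high and 0.0714 to 0.84 in myelin-low cells. Apoe was lower in the myelin-high cells. In myelin-low cells it was lowest in #6 (67865 CPM), had a median of 86046 CPM and was highest in #8 (109484 CPM), with a mean of 85459 ± 13828 CPM. In myelin-high cells it was lowest in #6 (42104 CPM), had a median of 68749.5 CPM and was highest in #4 (88222 CPM), with a mean of 66255 ± 13196 CPM. The ranges overlapped between mice, and within mice the myelin-high cells were lower in 8 of 9. Mouse #1 was the exception, at 75161 CPM in myelin-low and 75458 CPM in myelin-high cells.

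Apoe fell by 0.41 on the log2 scale (SE 0.08, edgeR adjusted p = 0.0082). Of 2031 genes tested 46 were called (2.26%), 26 of them higher (1.28%) and 20 lower (0.985%), and of the 2 of 7 genes that passed the filter on low counts 1 was called. The other was Abca8a, at 639 ± 166 CPM in myelin-low and 651 ± 150 CPM in myelin-high cells (log2 change 0.01, SE 0.15, edgeR adjusted p = 0.99), higher in 4 mice and lower in 5. The remaining 5 genes had 2 to 88 UMIs per rank over all mice and were not tested. Of the lipid genes of 8 lists, 41 were tested. Of these 0 were higher and 4 lower, with a median log2 change of -0.30 against -0.02 over all genes tested. Mvd and Dhcr7, enzymes of cholesterol synthesis, fell by 1.35 (SE 0.24, edgeR adjusted p = 0.0037) and 0.97 (SE 0.24, edgeR adjusted p = 0.032). Fabp7, the fatty acid binding protein of immature glia, fell by 0.93 (SE 0.18, edgeR adjusted p = 0.0065), from 10558 ± 2654 to 6118 ± 3268 CPM. These 3 were lower in 9 of 9 mice. Fdps, also of cholesterol synthesis and outside the naming rule since 1 mouse went the other way, fell by 0.52 (SE 0.12, edgeR adjusted p = 0.024) and was not recomputed under the alternatives. The call on Dhcr7 was fragile, kept in 3 of 12 alternatives and in 2 of 9 fits without 1 mouse. With DESeq2 its adjusted p was 0.072, and with stricter cell filters it fell by 0.41 (edgeR adjusted p = 0.60). Mvd kept its call in 8 of 12 alternatives and Fabp7 in 13 of 14, not without the mouse as a block (-0.82, edgeR adjusted p = 0.20), and both kept it without any 1 mouse.

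The call on Apoe had limits. It was lost with stricter cell filters, a minimum of 500 genes and a maximum of 5% mitochondrial UMIs (log2 change -0.36, edgeR adjusted p = 0.062), with lipid genes kept in the clustering (-0.27, edgeR adjusted p = 0.12) and without the mouse as a block (-0.40, edgeR adjusted p = 0.36). Myelin-low cells were deeper in 9 of 9 mice (median 746.5 to 1538 UMIs, against 681 to 1295). With the thinned counts themselves summed the change was as large (-0.45, edgeR adjusted p = 2.1e-04). With thinning to 1000 UMIs it was smaller and close to the threshold (-0.34, edgeR adjusted p = 0.048). Of the 602 cells of the myelin-high ranks, 12 were of cluster 13, and without that cluster the change was -0.40 (edgeR adjusted p = 0.020).

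Mice also differed in the share of neuroblast-like cells. It ran from 34.4% of cells in #4 to 80.9% in #8 among the 9 mice with enough Schwann-like cells, and the glia were asked for a relation to it. Apoe had a slope of 0.02 on the log2 scale per 10 percentage points (SE 0.06, edgeR adjusted p = 1.00), Abca8a 0.06 (SE 0.06, edgeR adjusted p = 1.00) and Lrp1 0.16 (SE 0.12, edgeR adjusted p = 1.00). Only these 3 of the 7 passed the filter. The lowest (#4) and the highest (#8) shares both went with high Apoe, 94654 and 92068 CPM. No gene of 3736 passed in edgeR (0.0%) or in DESeq2 (0 genes), 153 had an unadjusted p under 0.05 in edgeR, and 0 of 57 lipid genes were called. Without a filter on low counts 14 genes rose and 1 fell over all genes, and without #1 11 rose.

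Other lipid genes were set beside the members from 8 lists of 126 genes. Some of them were reported as cell type markers on these same samples (Fabp7, Scd2, Gpihbp1, Pltp, Trem2, Apoc1, Npc2 and Fabp4), and for those the direction is not independent evidence. Schwann-like cells were richer in lipid genes than neuroblast-like cells: of 82 genes tested 63 were higher, 8 lower and 11 did not pass, with edgeR and the mouse as a block over 9 mice. Over all 9177 genes 31.2% were higher and 38.2% lower (69.4% in either direction). The median log2 difference was 1.52 for the lipid genes and -0.14 for all genes.

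The groups were uneven. In cholesterol synthesis 19 of 20 were higher and 1 lower, in sterol trafficking and storage 8 of 9 were higher, and in fatty acid uptake and synthesis 13 of 19 were higher and 5 lower. Among receptors 7 of 9 were higher and 2 lower, among lipases and their partners 6 of 8 higher, among LXR and SREBP regulators 6 of 9 and among ABC transporters 3 of 7. Apoc1, the only apolipoprotein of the lists that passed the filter, was higher. Fabp7 stood at 8472 ± 2217 CPM in Schwann-like and 47.7 ± 52.4 CPM in neuroblast-like cells (log2 difference 7.99, SE 0.35, edgeR adjusted p = 5.8e-15). Rxrg, a retinoid X receptor that pairs with LXR, stood at 212 ± 71.4 against 1.07 ± 1.25 CPM (7.93, SE 0.31). Scd1, a fatty acid desaturase, was higher by 5.92 (SE 0.25), Plin3, a lipid droplet protein, by 5.89 (SE 0.25) and Apoc1 by 6.601 (SE 0.47). Neuroblast-like cells led for Lrp11 (81.3 ± 19.0 against 7.96 ± 3.67 CPM), Acsl1 (18.1 ± 14.4 against 1.95 ± 2.95 CPM), Fabp3 (28.8 ± 15.1 against 5.81 ± 5.35 CPM) and Acsl5 (53.8 ± 15.4 against 19.8 ± 10.5 CPM). Lrp8, the reelin and apolipoprotein E receptor of neurons, held 310 UMIs in neuroblast-like and 3 in Schwann-like cells (21.6 ± 5.02 and 1.02 ± 2.04 CPM). Genes with few UMIs in 1 class, here Lrp8, Acsl1, Rxrg and Apoc1, passed the filter on low counts through the other class. Their direction is therefore a description, and they enter the counts above.

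Macrophage-like and Schwann-like cells, which both held high Apoe, differed in the rest of the pathway. Of 58 genes tested over 9 mice 15 were higher in macrophage-like cells, 37 lower and 6 did not pass (edgeR, mouse as a block). Over all 2965 genes 23.7% were higher and 38.3% lower (62% in either direction), and the median log2 difference was -2.86 for the lipid genes and -0.40 for all. Cholesterol synthesis was lower in 15 of 16 genes and higher in 0, and fatty acid uptake and synthesis lower in 11 of 12 and higher in 1. Receptors were higher in 5 of 10 and lower in 2, and sterol trafficking and storage was higher in 3 of 7 and lower in 3. Both apolipoprotein-list genes tested were higher. Among LXR and SREBP regulators 2 of 8 were higher and 5 lower, of 2 ABC transporters 1 was higher and 1 lower, and the 1 lipase tested was higher.

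Trem2, a lipid-sensing receptor of macrophages, was at 919 ± 298 CPM in macrophage-like cells with 1 UMI in Schwann-like cells, and Stab1, a scavenger receptor, at 214 ± 81.9 CPM with 0. Pltp, the phospholipid transfer protein, was at 169.6 ± 162 CPM with 3 UMIs in Schwann-like cells. Lipa, the lysosomal acid lipase, was higher by 3.44 on the log2 scale (SE 0.39, edgeR adjusted p = 9.6e-10; 306 ± 330.3 against 21.7 ± 9.42 CPM), and Apoc1 by 3.24 (SE 0.27; 1091 ± 742 against 97.3 ± 41.4 CPM). In the other direction Fabp7 held 7 UMIs in macrophage-like cells (log2 difference -8.65, SE 0.37). Fads2 and Fads1, desaturases, stood at 641 ± 161 and 318 ± 88.2 CPM in Schwann-like cells with 2 and 1 UMIs in macrophage-like cells. Sqle, squalene epoxidase, stood at 239 ± 50.7 CPM with 1 UMI, and Vldlr, a lipoprotein receptor, at 81.5 ± 34.1 CPM with 0. Trem2, Stab1, Pltp, Fabp7, Fads2, Fads1, Sqle and Vldlr passed the filter on low counts through the class where they were high. Their direction is therefore a description, and they enter the counts given above. Vldlr passed the filter in 7 of 13 alternatives and in 6 of 9 fits without 1 mouse. With stricter cell filters 9 lipid genes were higher and 23 lower, and without the mouse as a block 5 and 22. Without macrophage-like cells holding B cell marker UMIs 12 were higher and 30 lower.

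**Figure D3:**
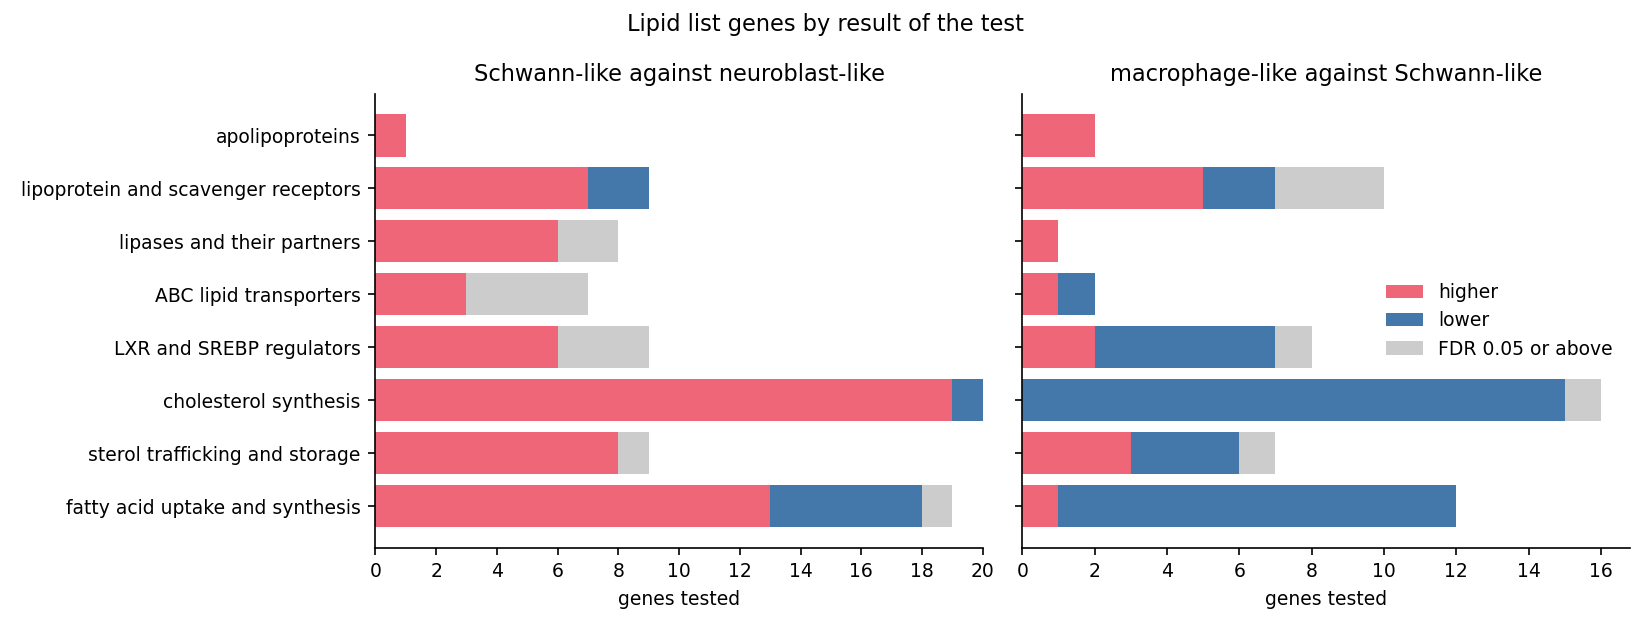
Number of lipid genes tested in each list (x axis) that were higher (red), lower (blue) or not called at an adjusted p of 0.05 (grey), for Schwann-like against neuroblast-like cells (left) and macrophage-like against Schwann-like cells (right). Cholesterol synthesis was higher in 19 of 20 genes on the left and lower in 15 of 16 on the right. Both panels use the same Schwann-like sums.

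The genes whose level over 74 sums of mouse and class was most like that of each member were found by Pearson's r of log2(CPM + 10) over 11636 genes. The sums share libraries, so the values are a description. For Apoe they were Pdlim4 (r = 0.81), Pxdc1 (0.77) and Gatm (0.76). For Abca8a they were Col5a2 (0.93), Entpd2 (0.92) and Matn2 (0.92). For Apod they were Dpep1 (0.95), Smoc2 (0.93) and Igfbp6 (0.93), and for Lpl Lum (0.73), Dcn (0.73) and Dpep1 (0.72). Clu went with Bmp4 (0.84), Lrrc3b (0.81) and Socs2 (0.80), Lrp1 with Cd63 (0.71), Cd302 (0.70) and Igf1 (0.70), and Abca1 with Vcam1 (0.79), Apoc1 (0.78) and Plekhm2 (0.76).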

How the data were processed

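Single-cell 3′ libraries of the SMG of 12 mice, 1 library each, were used. The deposited files hold raw UMI counts per gene and barcode, which the authors made with Cell Ranger on mm10 with human MYCN added (software version 3.0.2 per the file headers); they were neither normalized nor filtered to cells. The authors' own later steps used Seurat.

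Cells were called with an implementation of EmptyDrops (barcodes of at most 100 UMIs as ambient, 10000 draws, FDR 0.01) and kept with at least 200 genes, at most 10% mitochondrial and at most 60% ribosomal UMIs. Of 16186 called barcodes, 4039 failed on genes and 224 on mitochondrial UMIs. The median cell held 697.5 to 2367 UMIs by Th-MYCN+/- mouse at 3 weeks, 555.5 in WT and 1664 at 6 weeks. Clusters came from SCTransform and Louvain clustering (R 4.3.3, Seurat 5.3.0, sctransform 0.4.2) with the 7 genes and all lipid list genes left out. No doublet caller was run. Class names were rebuilt from markers and can differ from those of the study, and 27 cells stayed unnamed. UMIs were summed per mouse and class, with at least 10 cells per sum in means. In such sums fewer cells and less RNA per cell cannot be told apart within a class.

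Sums were tested with edgeR 4.0.16 (quasi-likelihood, TMM, filterByExpr, Benjamini-Hochberg over all genes tested, threshold 0.05). Paired sums come from 1 animal, so the mouse was a block. Deviations of paired sums correlated at 0.0498 to 0.160 (Schwann-like and neuroblast-like), 0.0418 to 0.124 (macrophage-like and Schwann-like) and 0.117 to 0.283 (myelin-high and myelin-low cells). In the paired tests P-values measure how far the difference within a mouse varies over the mice. In the relation to neuroblast share they measure the spread between mice. Data were simulated from these sums with known changes, and changed genes that passed the filter on low counts were scored. Of those changed by 1.5 on the log2 scale, 157 of 174, 148 of 162 and 184 of 186 were recovered in these 3 comparisons. False calls were 10, 12 and 6. In the relation to neuroblast share, 106 of 126 genes with a slope of 0.5 were recovered, with 5 false calls. Changed genes lost to the filter are not in these totals. Smaller changes, such as those of Apoe by myelin rank or neuroblast share, were not simulated, so their recovery is not known.

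The 7 genes, the lists and the tests were chosen with earlier results of these data known. Lipid genes named are the up to 5 of largest change in each direction that passed with the same sign in every mouse. Fdps and 2 alternatives (leaving out macrophage-like cells with B cell marker UMIs, or the myelin cluster) were chosen after the data were seen. Other alternatives were stricter cell filters, other clusterings and scalings, DESeq2 1.42.0, no filter on low counts, no block, free RNA subtracted, other thinning and each mouse left out. Positions come from GENCODE and RefSeq annotation of GRCm38. A comparison of Apoe with another gene is not reported here.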

Additional observations from a re-analysis of the deposited data

Results flagged for a closer look

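Of 34 groups of mice screened, 9 held a mouse at 3 weeks far from the others by Dixon's criterion, used here only as a flag. Several flagged values rest on 1 or 2 UMIs, so the 9 are not set against a rate given by chance. Mouse #2 gave several of them: Apoe in endothelial-like cells (7212 CPM, others 609.8 to 2838 CPM), Apoe in neuroblast-like cells (3906 CPM, others 90.2 to 1213 CPM) and, on 2 UMIs, Apod in neuroblast-like cells (14.8 CPM, others up to 3.37 CPM). Also in #2, Abca1 in neuroblast-like cells (7.397 CPM) rested on 1 UMI. The empty droplets of #2 held the most Apoe of the 10 mice (21642 CPM, next 14598 CPM in #3), and 38.8% of its UMIs were in cells. Free RNA was estimated at 20.3% of its neuroblast-like and 6.92% of its endothelial-like sum. Its part in the flagged levels was not tested. Apoe in fibroblast-like cells of #3 was 29627 CPM (others 12228 to 16747 CPM, with at least 10 cells each). The sums of #7 (49316 CPM) and #8 (40826 CPM), with 5 cells each, were higher still, so #3 does not stand apart once they are counted. Apod in Schwann-like cells of #5 was 229 CPM (71 UMIs, others 14.8 to 51.5 CPM). Clu was 75.7 CPM in Schwann-like cells of #6 (7 UMIs, others 9.39 to 27.5 CPM) and 57.6 CPM in neuroblast-like cells of #4 (102 UMIs, others 3.00 to 27.6 CPM). Lrp1 in ganglion-like cells of #1 was 28.5 CPM on 2 UMIs (others up to 12.01 CPM).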

How the results depend on the processing

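For Schwann-like against neuroblast-like cells 82 of 84 recomputed counts stayed within 1.5 times, and without the replicate block 4 lipid genes and 2336 of all genes were lower. For macrophage-like against Schwann-like cells 77 of 88 counts did. There stricter cell filters gave 9 lipid genes higher and 23 lower (386 and 537 of all genes), no replicate block 5 and 22 (379 and 543), no filter on low counts 2822 of all genes lower, no cells with B cell marker UMIs 444 of all genes higher, and leaving out 1 mouse 753 (without #6) to 1119 of all genes lower.

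For myelin-high against myelin-low cells, stricter cell filters left 1 lipid gene and 0 of the 7 genes lower (14 of all genes higher, 4 lower), log-normalized clustering 2 lipid genes (16 and 8 of all genes), lipid genes kept in the clustering 2 lipid genes and 0 of the 7, no replicate block 0, 0, 6 and 1, thinned counts 1 lipid gene (12 and 4 of all genes), thinning to 1000 UMIs 10 and 9 of all genes, and no filter on low counts 54 of all genes and 2 of the 7 lower. The other of these was Apod (log2 change -2.01, SE 0.48, edgeR adjusted p = 0.010), with 64 of its 88 myelin-low UMIs in #5. Leaving out 1 mouse gave 2 to 4 lipid genes lower, 17 to 30 of all genes higher and 7 to 19 lower, and Apoe stayed called at -0.46 to -0.36. Abca8a changed sign at a lower clustering resolution (-0.019), with log-normalized clustering (-0.11), with no filter (-0.025), with no replicate block (-0.00300) and over mice left out (-0.047 to 0.086).

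For the relation to neuroblast share, no filter gave 14 genes higher and 1 lower, and leaving out 1 mouse 0 to 11 higher (11 without #1). The Apoe slope changed sign with no filter (-0.032), without the 2 mice farthest from the median share (-0.13) and over mice left out (-0.035 to 0.068).

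Levels by class stayed within the spread between mice, or within counting error for 1 mouse, in 200 of 212 values. Apoe in WT Schwann-like cells was 80120 CPM under stricter filters, 71720 CPM with lipid genes in the clustering and 71310 CPM with free RNA subtracted. At 6 weeks it was 88690 CPM with log-normalized clustering and 88580 CPM with free RNA subtracted. In macrophage-like cells it was 34490 CPM in WT and 51810 CPM at 6 weeks at a lower clustering resolution, and at 6 weeks 61120 CPM under stricter filters, 69060 CPM with lipid genes in the clustering and 68780 CPM without cells holding B cell marker UMIs. Lpl in Schwann-like cells was 16.3 CPM with log-normalized clustering, and Lrp1 in macrophage-like cells 284 CPM without cells holding B cell marker UMIs. Where not stated, the cause was not tested. Depth limited Lpl, Abca1 and Clu in glia, with 7, 55 and 48 UMIs over 9 mice.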
